A study of Mus musculus with 40 samples.

Results

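Hepatic gene expression in 5 mice given 10 μg/kg TCDD was compared with that in 5 mice given vehicle. The 10 libraries were chosen by their dose labels, 10 and 0, from a series of 40 livers that holds 5 mice at each of 8 dose levels. All were male C57BL/6 mice without a named genetic alteration, fed ad libitum and gavaged every 4 days for 28 days (7 gavages, from 30 to 58 days of age) with TCDD in sesame oil or with sesame oil alone. The 5 mice each at 3 and 30 μg/kg, treated alike, were used to place the response at 10 μg/kg between its neighbours. Each library was made from the whole liver RNA of 1 mouse, so it mixes hepatocytes with every other cell of the organ, and fewer cells of a type and less RNA per cell cannot be told apart.

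TCDD is a persistent dioxin that binds the aryl hydrocarbon receptor (AhR), which waits in the cytosol bound to chaperone proteins and acts as a transcription factor once a ligand occupies it. The liganded receptor moves to the nucleus, pairs with ARNT and binds dioxin response elements near genes such as the Cyp1 cytochromes P450, which oxidize planar hydrocarbons. In rodent liver, repeated TCDD is known for fat accumulation, inflammation, fibrosis and wasting, and male mice are known to lose part of their sex-specific liver expression.

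The libraries held between 15496128 and 20853868 counts in genes in vehicle and between 15715716 and 19819464 at 10 μg/kg. Of 8 library measures, among them depth, unmapped, multimapped and mitochondrial reads, none differed between the groups by an exact permutation test after Benjamini-Hochberg adjustment. The lowest unadjusted p was 0.0556, for unmapped reads, with a mean of 5.29% ± 1.70 in the vehicle mice against 3.66% ± 0.395 in those at 10 μg/kg (SD over 5 mice, 2-sided exact test, adjusted p = 0.444), and 5 mice against 5 can give no p under 0.00794. Vehicle replicate 2 stood apart in skeletal muscle transcripts, with 559 counts of the muscle creatine kinase gene Ckm and 493 of the myosin gene Myh4, where no other vehicle library had more than 1. Acta1, the muscle actin gene, measured 0, 146, 0.0647, 0 and 0 CPM (counts per 1e6 counts in genes, after TMM scaling of the libraries) in vehicle mice 1 to 5 and 3.46, 0.738, 6.83, 6.59 and 3.78 CPM in TCDD mice 1 to 5. Without vehicle replicate 2 its log2 fold change turned from -2.78 to 7.55, that of smooth muscle actin, Acta2, went from 0.33 to 1.58 with a call gained, and the call of the myosin light chain gene Mylpf was lost (-2.90 to -0.44). Pancreatic enzyme counts were also present in livers at 10 μg/kg, with at most 75 counts of Ctrb1 and 31 of Prss2 in a library, against 7 and 11 in vehicle. The liver label was checked against its defining transcripts, of which Alb (albumin) and Trf (transferrin) were at 83015 ± 7115 and 17645 ± 1593 CPM in vehicle (SD, n = 5). Sample titles carry numbers in 2 runs, up to 27 and from 28, and both groups have mice in both runs: vehicle mice 1 to 3 and TCDD mice 1 and 2 in run 1, the others in run 2. Nothing in the labels says what the runs are.

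Of 15373 tested genes, 3347 (21.8%) were called at 10 μg/kg, 2097 higher (13.6%) and 1250 lower (8.13%). A gene was called when edgeR's quasi-likelihood test gave a Benjamini-Hochberg adjusted p under 0.05 together with a change of 1.5-fold or more, and 31.8% of genes passed without the requirement on fold. The median log2 fold change was 0.01 over all tested genes, 1.37 over the genes called higher and -1.03 over those called lower. Large changes were mainly upward: 187 genes rose and 39 fell at least 10-fold, and 575 rose and 175 fell at least 4-fold. In 1560 of the genes called higher all 5 treated mice lay above all 5 vehicle mice, and in 952 of those called lower all lay below, while 23.0% of all tested genes, called or not, had no overlap between the groups. Scaling by total counts, with no TMM factors, gave a split of 2980 higher and 756 lower, put the median of all genes at 0.22, and changes on that scale are read relative to this shift. Counts of list members are read beside these shares of all genes, and a share near them is no result about a list. In the volcano plot of all tested genes, Cyp1a1, Cyp1b1, Nptx1 and Col9a2 lie farthest to the right.

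**Figure D1:**
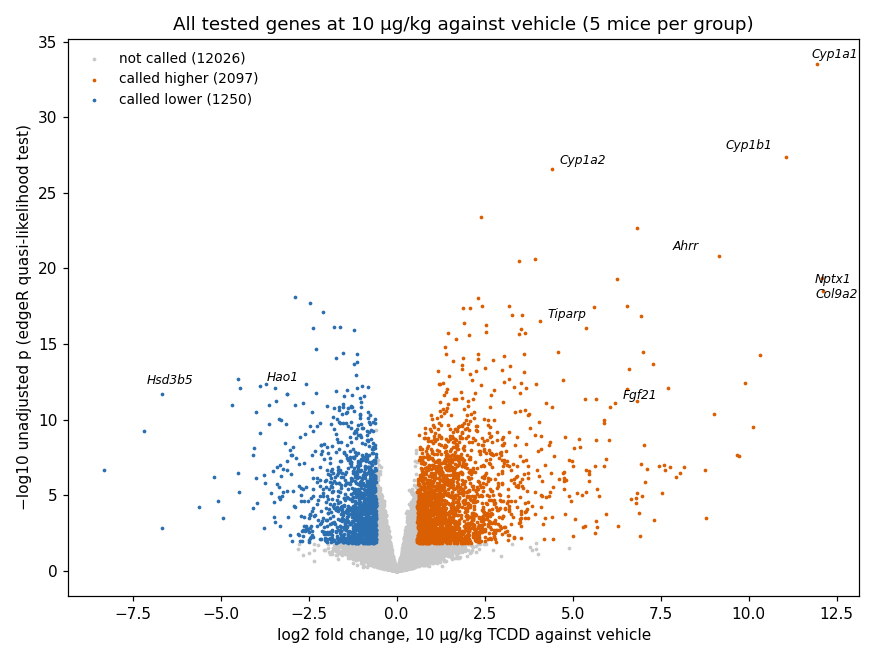
Each point is 1 of 15373 genes, with the log2 fold change of 10 μg/kg TCDD against vehicle on the x axis and −log10 of the unadjusted p of edgeR's quasi-likelihood test on the y axis (5 mice per group). Genes called higher (2097, orange) reach larger changes than genes called lower (1250, blue), and Cyp1a1 lies at a log2 fold change of 11.94.

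The Cyp1 genes were induced far above every vehicle mouse. Cyp1a1 (ENSMUSG00000032315), the classical AhR-induced monooxygenase, measured 1.74, 1.62, 2.33, 0.979 and 1.65 CPM in vehicle mice 1 to 5 and 7096, 6215, 5629, 6672 and 7424 CPM in TCDD mice 1 to 5. All treated mice lay far above all vehicle mice and within a narrow range of each other, which gave a log2 fold change of 11.94 (SE 0.27) (edgeR adjusted p = 4.63e-30). Cyp1a2 (ENSMUSG00000032310), which is also expressed in untreated liver, was induced 21.3-fold from 1029.7 ± 139.9 to 21943 ± 3586 CPM (SD, n = 5 each). Cyp1b1, an otherwise mainly extrahepatic member of the family, rose from 0.308 ± 0.268 to 662 ± 188 CPM. Among the feedback genes, Ahrr, which encodes the AhR repressor, reached no more than 3 counts in a vehicle library and was at least 354-fold higher, and Tiparp, an ADP-ribosyltransferase that curbs AhR, was induced 16.9-fold to 84.5 ± 38.2 CPM. Nqo1, the quinone reductase shared by AhR and NRF2, was induced 6.64-fold. In all, 6 of 8 tested AhR target genes were called higher, with a median log2 fold change of 4.24 beside 0.01 over all genes. Aldh3a1 failed the count filter with 25 counts over the 5 treated mice and 0 in vehicle, and Ugt1a6a and Ugt1a6b were not called, with log2 fold changes of 0.61 (called without replicate 5 at 10 μg/kg, 0.80) and -0.32. Of 5 genes of the AhR complex, Ahr itself was called, at 0.79 on the log2 scale, but not without replicate 1 (0.74) or replicate 4 (0.68) at 10 μg/kg. Its partner Arnt had a log2 fold change of 0.09.

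The promoters of 4 AhR target genes carry the core of the dioxin response element, GCGTG, within 250 bases before the transcription start (RefSeq sequences on GRCm38.p6, read 5′ to 3′ on the gene's own strand). They are shown because these 4 genes were among the 6 called members of this list, and capitals mark GCGTG or its reverse complement CACGC. The windows are chr9:57697363-57697612 (plus strand) for Cyp1a1, chr17:79715062-79715311 (minus strand) for Cyp1b1, chr13:74292332-74292581 (minus strand) for Ahrr and chr3:65528197-65528446 (plus strand) for Tiparp.
Cyp1a1: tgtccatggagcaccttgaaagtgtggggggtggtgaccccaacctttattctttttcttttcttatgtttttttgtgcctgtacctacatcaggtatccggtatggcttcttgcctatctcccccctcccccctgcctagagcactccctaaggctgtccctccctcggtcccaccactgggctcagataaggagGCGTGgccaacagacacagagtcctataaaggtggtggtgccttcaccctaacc
Cyp1b1: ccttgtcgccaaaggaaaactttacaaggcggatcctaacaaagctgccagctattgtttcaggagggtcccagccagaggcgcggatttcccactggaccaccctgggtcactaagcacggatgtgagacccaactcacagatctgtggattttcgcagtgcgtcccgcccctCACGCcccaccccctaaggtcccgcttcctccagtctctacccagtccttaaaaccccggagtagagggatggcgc
Ahrr: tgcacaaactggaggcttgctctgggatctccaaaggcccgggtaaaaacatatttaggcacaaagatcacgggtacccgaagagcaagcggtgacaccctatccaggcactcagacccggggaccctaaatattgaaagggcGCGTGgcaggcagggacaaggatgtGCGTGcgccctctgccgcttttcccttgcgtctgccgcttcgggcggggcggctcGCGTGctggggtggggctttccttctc
Tiparp: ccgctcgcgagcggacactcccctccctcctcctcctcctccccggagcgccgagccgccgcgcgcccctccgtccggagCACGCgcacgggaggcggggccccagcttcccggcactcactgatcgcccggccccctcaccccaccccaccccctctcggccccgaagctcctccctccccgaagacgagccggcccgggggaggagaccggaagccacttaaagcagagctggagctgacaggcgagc
The Ahrr window holds 3 copies and the others 1 each, while the windows of Cyp1a2 and Nqo1 hold none. The core is short and common. It was found on either strand in 28.2% of all 32851 promoter windows and, counting any window of a gene, in 47.5% of the 11101 tested genes with a window. The share was 41.3% of 1554 genes called higher, 37.6% of the 426 that rose at least 4-fold and 39.3% of 865 called lower. The antioxidant response core TGACNNNGC was found in 14.7% of genes called higher and 13.9% of all tested genes with a window. These shares describe the letters in the window and say nothing of binding.

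The antioxidant and conjugation genes responded in part. NRF2, encoded by Nfe2l2, is the transcription factor that senses electrophiles, and Nfe2l2 rose from 75.0 ± 12.6 to 219 ± 59.6 CPM, 2.92-fold (edgeR adjusted p = 8.48e-08). Of 18 genes of this response, 8 were called higher and none lower, with a median log2 fold change of 0.52. Hmox1, which breaks down heme, was induced 4.43-fold, the efflux pump gene Abcc4 6.17-fold and Srxn1, which repairs oxidized peroxiredoxins, 2.37-fold. Ugdh, which makes the sugar donor of glucuronidation, rose 2.48-fold. Slc7a11, the cystine importer, went from 0 counts in the vehicle libraries to a mean of 0.843 CPM, at least 4.41-fold higher, and its call was lost without replicate 3 at 10 μg/kg. The glutathione synthesis genes Gclc and Gclm were at -0.16 and -0.11 and were not called.

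Glutathione S-transferases, which couple glutathione to electrophiles, moved in both directions, with 4 called higher and 3 lower of 19. Gstm3 was induced 8.03-fold from 148 ± 12.4 to 1189.7 ± 369.5 CPM, Gstp2 8.29-fold, Gsta1 5.62-fold and Gstm2 2.15-fold. Gstm6 and Gstt1 were repressed 2.43-fold and 1.92-fold. Close family members share reads, so the values of single Gst genes are uncertain. Of 12 UDP-glucuronosyltransferases, Ugt1a9 rose 5.81-fold to 228 ± 46.3 CPM and 5 were called lower, among them Ugt3a1 (2.39-fold) and Ugt2b1 (1.96-fold), but 3 without replicate 3 or replicate 5 at 10 μg/kg.

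The list of P450 genes under CAR, PXR and PPARα, other drug and lipid sensors of the liver, had 3 called higher and 3 lower of 12. Cyp4a14 (ENSMUSG00000028715), a fatty acid hydroxylase and PPARα target, measured 1132, 1109.6, 343, 287 and 651 CPM in vehicle mice 1 to 5 and 53.4, 40.0, 48.2, 125 and 28.8 CPM in TCDD mice 1 to 5. The groups did not overlap although the vehicle mice spread widely, and the gene was repressed 11.9-fold (edgeR adjusted p = 8.69e-05). Its relative Cyp4a31 was induced 4.04-fold, and Cyp4a10 was at -0.31, not called. Cyp2b10, the usual marker of CAR, rose 4.63-fold from 17.9 ± 9.12 to 83.5 ± 28.4 CPM. Cyp3a25 and Cyp3a13 were repressed 1.96-fold and 1.84-fold, while the PXR marker Cyp3a11 was at -0.23.

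Most tested male-biased genes were repressed and most female-biased genes induced. In male mice, pulsed growth hormone acting through STAT5B keeps these programs apart. Hsd3b5 (ENSMUSG00000038092), a male-specific steroid dehydrogenase, measured 213, 178, 314, 295 and 194 CPM in vehicle mice 1 to 5 and 0.720, 0.277, 0.0521, 0.471 and 10.6 CPM in TCDD mice 1 to 5. Treated mouse 5 kept the most, and the other treated mice were near 0. The gene was repressed 101-fold (edgeR adjusted p = 2.87e-10), and leaving out treated replicate 5 moved its log2 fold change from -6.65 to -9.27. Of 12 tested male-biased genes, 7 were called lower and none higher, with a median log2 fold change of -2.05. Mup3, a urinary pheromone carrier, fell 11.5-fold from 9453 ± 1160.5 to 823 ± 439 CPM, the organic anion importer Slco1a1 10.1-fold, the fatty acid elongase Elovl3 9.00-fold and Cyp4a12a 5.17-fold. Mup and Cyp4a12 genes have near-identical copies, so how the losses divide among copies is uncertain.

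Of 12 tested female-biased genes, 7 were called higher and 1 lower, with a median of 1.89. Cyp2b13 rose 20.7-fold from 0.279 ± 0.198 to 6.22 ± 3.02 CPM, Cyp2a4 9.59-fold and Acot3 4.68-fold. Without vehicle replicate 2 the log2 fold change of Cyp2a4 went from 3.26 to 4.68, and Cyp2c40, the call lower, lost its call (-2.79 to -2.21). These P450 genes have close relatives, so reads may be shared among them. In the growth hormone axis, 2 of 13 genes were called lower and 1 higher, in all a share close to the 21.8% of all genes. The receptor gene Ghr was repressed 2.23-fold from 509 ± 50.2 to 229 ± 49.7 CPM, while Stat5b (-0.25), Socs2 (-0.25) and Igf1 (-0.44) were not called. The binding protein gene Igfbp2 fell 2.31-fold and Igfbp3 rose 1.75-fold.

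**Figure D2:**
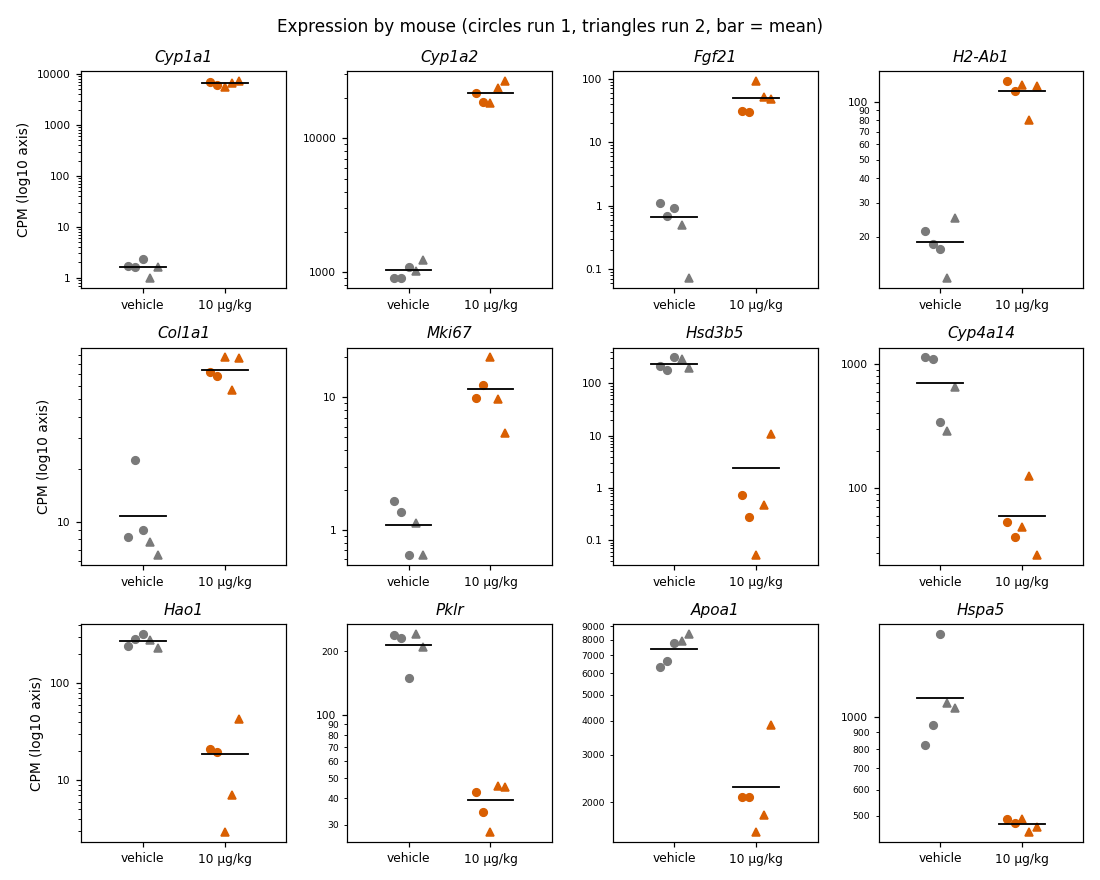
CPM (log10 axis) of 12 genes in each mouse, vehicle in grey and 10 μg/kg TCDD in orange, with circles for title run 1 and triangles for run 2 and a bar at the group mean. In all 12 panels the 5 treated mice lie on 1 side of the 5 vehicle mice, which was a condition for showing a gene. Of all tested genes, 23.0% had no overlap between the groups.

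Many genes for making fat and many apolipoprotein genes were repressed. Among 20 genes of fatty acid and triglyceride synthesis, 8 were called lower and 2 higher, with a median log2 fold change of -0.75. The list includes its carbohydrate- and insulin-responsive regulators Mlxipl (ChREBP), repressed 2.73-fold from 561 ± 108 to 206 ± 23.0 CPM, and Srebf1, repressed 2.09-fold. The chain elongase gene Elovl2, the glycerolipid gene Agpat2 and ATP citrate lyase, Acly, fell 2.64-fold, 2.60-fold and 2.11-fold. Elovl5 was called higher, 1.83-fold, and Lpin2 lost its call without vehicle replicate 3 (log2 fold change 0.79). Scd1, the most studied desaturase, was at 11779 ± 3403 CPM in vehicle and 12449 ± 3159 CPM at 10 μg/kg, and Fasn at -0.88, neither called.

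For fatty acid oxidation and ketogenesis, 4 of 20 genes were called lower and 1 higher, in all a share close to the 21.8% of all genes. Peroxisomal Acaa1b was repressed 3.09-fold from 1647 ± 353 to 533 ± 81.7 CPM. Without vehicle replicate 5 or replicate 3 at 10 μg/kg, 2 were called lower. The hormone gene Fgf21 (ENSMUSG00000030827), which liver secretes under fasting or amino acid stress, measured 1.09, 0.684, 0.906, 0.490 and 0.0716 CPM in vehicle mice and 30.4, 29.3, 92.8, 50.7 and 47.6 CPM in TCDD mice 1 to 5. The groups lay far apart, with treated mouse 3 the highest, an induction of 73.4-fold (edgeR adjusted p = 9.2e-10). For lipid uptake and droplets, 2 of 17 genes were called higher and 1 lower, with a median of -0.19. These shares are near the 13.6% and 8.13% of all genes. The fatty acid translocase Cd36 rose 6.75-fold from 36.4 ± 15.9 to 246 ± 50.0 CPM and lipoprotein lipase, Lpl, 2.24-fold. The droplet coat gene Plin2 was at -0.27, not called, and the sole call lower, Fabp1, was lost without vehicle replicate 3 (-0.57).

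In the list of apolipoproteins and lipoprotein assembly, 8 of 13 genes were called lower and none higher, with a median of -0.66. Of its members that are not apolipoproteins, Tm6sf2 was called lower. The other, Mttp, was not called, with log2 fold changes of -0.45 in title run 1 and -0.51 in run 2. Apoa1 (ENSMUSG00000032083), the main protein of high-density lipoprotein, measured 6317, 6667, 7779, 7908 and 8388 CPM in vehicle mice and 2086, 2088, 1549, 1795 and 3871 CPM in TCDD mice 1 to 5. The groups did not overlap and Apoa1 was repressed 3.25-fold (edgeR adjusted p = 9.22e-06). Apoc1 fell 2.09-fold, Apob 1.87-fold and Apoe 1.82-fold. With libraries scaled to total counts alone, 4 were called lower.

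Of 22 genes of cholesterol synthesis and uptake, 2 were called higher and 1 lower, beside 13.6% and 8.13% of all genes. For a list of this size these shares are near those of all genes. The counts ranged from 0 to 2 in each direction over the fits without 1 library, with the highest and lowest counts each reached without several different mice. The median was 0.15. From 10 to 30 μg/kg, 22 of 22 were called, all lower, beside 10.6% of all genes called lower. In bile acid transport and sensing, 7 of 15 genes were called lower and none higher. Besides Slco1a1, the sinusoidal importers Slco1b2 and Slc10a1 were repressed 1.96-fold and 1.80-fold, and the sterol exporters Abcg8 and Abcg5 1.90-fold and 1.78-fold. Of 12 synthesis genes 2 were called lower (1 to 4 in the fits without 1 library), and Baat, which conjugates bile acids to taurine, fell 1.97-fold. Cyp7a1, the rate-limiting step, varied widely among mice, at 33.9 ± 16.2 CPM in vehicle and 61.6 ± 44.7 CPM at 10 μg/kg.

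Several glucose-handling genes of the hepatocyte fell while isoenzymes of other tissues rose. Pklr (ENSMUSG00000041237), the liver pyruvate kinase, measured 239.7, 233, 149.9, 241 and 210.1 CPM in vehicle mice and 43.1, 34.5, 27.7, 46.0 and 45.6 CPM in TCDD mice 1 to 5. All treated mice lay well under the lowest vehicle mouse, and Pklr was repressed 5.45-fold (edgeR adjusted p = 1.97e-08). Pkm, the pyruvate kinase of most other cells, rose 3.78-fold from 15.1 ± 5.72 to 57.2 ± 5.34 CPM. Of 14 genes of glucose production and glycogen, 7 were called lower and 1 higher. Glycogen synthase Gys2 fell 2.28-fold, glucose 6-phosphatase G6pc 2.27-fold and the glucose transporter gene Slc2a2 1.79-fold, while Fbp1 rose 1.64-fold. Of 8 extrahepatic glycolytic genes, 5 were called higher, including the hexokinase genes Hk3 (3.14-fold) and Hk1 (1.95-fold), both of which are also expressed by leukocytes.

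Amino acid breakdown genes were repressed in several branches. Of 19 genes of aromatic amino acid, histidine and glyoxylate breakdown, 12 were called lower and none higher, though 7 passed when total counts set the scale. Hao1 (ENSMUSG00000027261), the peroxisomal glycolate oxidase, measured 242, 287, 320.1, 279.6 and 231 CPM in vehicle mice and 20.9, 19.3, 2.92, 6.95 and 43.0 CPM in TCDD mice 1 to 5. The treated mice spread widely, lowest in mouse 3, but all lay under the lowest vehicle mouse, a repression of 14.6-fold (edgeR adjusted p = 1.07e-10). Serine dehydratase, Sds, fell 3.39-fold, histidine ammonia-lyase, Hal, 2.87-fold, and the kynurenine pathway genes Kmo and Haao 1.97-fold and 1.92-fold. In the urea cycle and ammonia list, 4 of 10 were called lower: Otc 3.01-fold from 479 ± 53.9 to 159 ± 6.69 CPM, Gls2 2.10-fold, Cps1 1.78-fold and Glul 1.77-fold. Among 12 genes of methionine and sulfur amino acids, 11 were not called, and the share called lower was near the 8.13% of all genes. The sole call, Csad, a step to taurine, fell 3.62-fold. None of 9 propionyl-CoA genes and none of 10 cobalamin genes was called, with medians of -0.27 and -0.05. Beside this, 21.8% of all genes were called, which for lists this short is few genes. All treated mice lay below all vehicle mice in 4 propionyl-CoA genes and 0 cobalamin genes, beside 10.1% of all tested genes. The summed propionyl-CoA list was at 1382 to 1483 CPM in vehicle and 1148 to 1292 CPM at 10 μg/kg, while the summed cobalamin list overlapped between the groups. Of 3 itaconate genes 1 was called, Acod1, which makes itaconate in macrophages, and it was at least 3.32-fold higher.

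**Figure D3:**
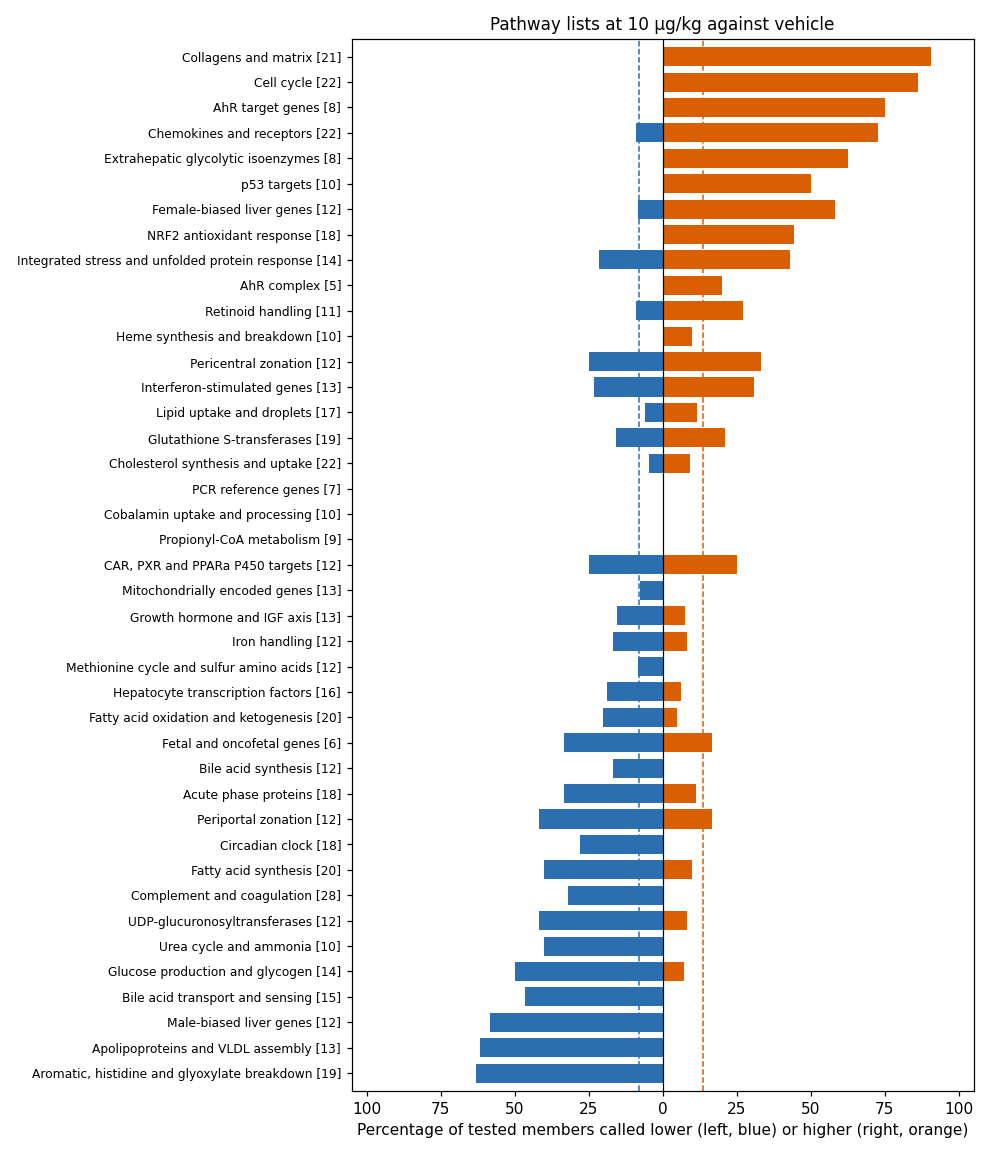
Percentage of tested members called higher (orange, to the right) or lower (blue, to the left) at 10 μg/kg against vehicle for the 41 pathway lists with at least 5 tested members, with the number tested in brackets and dashed lines at 13.6% and 8.13%, the shares of all tested genes. The cell cycle and matrix lists have the longest bars to the right, and the apolipoprotein and amino acid breakdown lists the longest to the left.

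Secreted plasma proteins were lower in part. Of 28 complement and coagulation genes, 9 were called lower and none higher, with a median of -0.45. The fibrinogen chains Fga, Fgb and Fgg fell 2.47-fold, 2.05-fold and 2.23-fold, and complement factor 5, Hc, fell 1.97-fold. Among 18 acute phase genes, 6 were called lower and 2 higher, so the list did not move in a single direction. Haptoglobin, Hp, fell 3.60-fold from 2451 ± 195 to 680.4 ± 261 CPM, and Apcs 2.50-fold. Lcn2, an iron-scavenging lipocalin made by stressed hepatocytes and neutrophils, rose 4.46-fold. Saa2, serum amyloid A, was called with 67.3, 204, 20.8, 8.24 and 35.1 CPM in TCDD mice 1 to 5, and not without replicate 2 (log2 fold change 2.14). Albumin, Alb, was at -0.26 and not called.

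Of 16 hepatocyte transcription factor genes, 3 were called lower and 1 higher, a share close to the 21.8% of all genes. Cebpa was repressed 1.88-fold from 459 ± 56.9 to 244 ± 32.0 CPM and Foxa1 1.90-fold, while Hnf4a was at 0.14. The call higher, Cebpb (0.99), was lost without vehicle replicate 1, 3 or 4 or replicate 5 at 10 μg/kg (lowest 0.54). Of 18 clock genes, 5 were called lower and none higher. Cry1, a repressor of the clock loop, measured 38.3, 30.5, 44.3, 33.1 and 39.9 CPM in vehicle mice and 17.2, 15.0, 22.4, 18.4 and 12.7 CPM in TCDD mice 1 to 5, a repression of 2.17-fold without overlap (edgeR adjusted p = 9.5e-05). Nfil3 fell 1.89-fold, and Nr1d1 lost its call without vehicle replicate 5 (-1.62). All livers were collected early in the light phase, so these are levels at a single time of day.

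Zonation markers moved in both directions within each list. Of 12 pericentral genes, which Wnt maintains around the central vein, 4 were called higher and 3 lower. Cyp2a5, Axin2 and Slc1a2 rose 2.57-fold, 2.02-fold and 1.85-fold, while Glul and Slco1b2 fell as above. Of 12 periportal genes, 2 were called higher and 5 lower. Hsd17b6 and Aldh1b1 rose 4.17-fold and 2.97-fold, and Sds, Hal, Sdsl and Gls2 fell, Sdsl 2.28-fold. In retinoid handling, 3 of 11 were called higher and 1 lower, with Aldh1a1, which makes retinoic acid, down 1.66-fold. Of 12 iron genes, 2 were called lower and 1 higher, in all a share close to the 21.8% of all genes. Hamp2, a hepcidin paralog, fell 8.64-fold and Bmp6 rose 1.76-fold, and Hamp was at -0.45. The iron and zinc importer gene Slc39a14 lost its call without replicate 1 (-0.58) or 2 (-0.55) at 10 μg/kg. Of 10 heme genes, Hmox1 was the sole call, with Alas1 at 0.03.

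Transcripts of several immune cell types were higher. All 8 tested dendritic cell and MHC class II genes were called higher (background 13.6%), with a median of 2.36. H2-Ab1 (ENSMUSG00000073421), a chain of the MHC class II molecule, measured 21.4, 18.2, 17.3, 12.2 and 25.1 CPM in vehicle mice and 128, 113, 122, 80.5 and 120.0 CPM in TCDD mice 1 to 5. The groups were widely apart, and H2-Ab1 rose 5.98-fold (edgeR adjusted p = 1.07e-07). The invariant chain gene Cd74 rose 5.61-fold and Ciita, the master regulator of the class, 4.00-fold. None of the 8 was called between 3 and 10 μg/kg, where 6.77% of all tested genes were, or between 10 and 30 μg/kg (21.1%), and 0 of 8 does not stand apart from shares of this size.

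Of 10 macrophage genes, 9 were called higher, and of 10 resident Kupffer cell genes, 8. The summed level of the macrophage list was 121 to 169 CPM in vehicle mice and 289 to 433 CPM in TCDD mice. Adgre1, which encodes F4/80, rose 3.32-fold, Csf1r, the receptor for macrophage growth factor, 3.11-fold from 30.3 ± 3.24 to 94.0 ± 12.4 CPM, and Lyz2 2.95-fold. Among Kupffer cell genes, Marco rose 6.61-fold, C1qb 3.03-fold and Clec4f, the most specific of them, 1.97-fold, while Timd4 was at 0.74, not called. Of 10 genes of lipid-associated macrophages, 6 were called higher and Cd9 lower. Gpnmb (ENSMUSG00000029816), a lysosomal glycoprotein of lipid-laden macrophages, measured 0, 0.933, 0.0647, 0.210 and 0.143 CPM in vehicle mice and 18.9, 18.0, 35.6, 28.7 and 25.1 CPM in TCDD mice 1 to 5. Vehicle mouse 2 was the highest of its group and far below every treated mouse, which gave a log2 fold change of 6.54 (SE 0.59) at an edgeR adjusted p of 1.57e-10 (7.95 without vehicle replicate 2). Mmp12, Lgals3 and Trem2 rose 114-fold, 8.33-fold and 6.83-fold, while Spp1, another gene of this state, was at 0.39, not called. Without vehicle replicate 1 the log2 fold change of Mmp12 went from 6.83 to 7.55.

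Other leukocyte lists were at low counts. Called higher were 4 of 5 monocyte genes, with Ccr2 up 4.09-fold (2 without replicate 5 at 10 μg/kg), and 3 of 5 neutrophil genes, with S100a9 up 6.83-fold and Csf3r 3.60-fold. The neutrophil-defining Ly6g had 0 counts in both groups, which allows up to 3 counts in a library. Of 11 T and NK cell genes, 2 were called higher (background 13.6%), 1 of them, Cd8a (4.91-fold), in every fit without 1 library. Of 6 B and plasma cell genes, 3 were called higher. Ighm, the immunoglobulin M heavy chain, measured 7.56, 8.09, 15.9, 9.51 and 15.3 CPM in vehicle mice and 62.0, 47.7, 10.6, 15.3 and 17.1 CPM in TCDD mice 1 to 5. The 2 treated mice of title run 1 thus carried most of its rise. In run 2, TCDD mice 3 and 4 lay within the vehicle range and mouse 5 just above it. Chemokine and receptor genes rose for 16 of 22 and fell for 2. Ccl2, which draws monocytes, rose 8.97-fold, and Ccr1 and Ccl22 were at least 9.78-fold and at least 8.43-fold higher. Cxcl12, a stromal chemokine, fell 2.20-fold from 404 ± 22.3 to 184 ± 11.7 CPM. Interferon-stimulated genes moved in both directions, with 4 called higher and 3 lower of 13. Usp18 rose 3.14-fold and Ifi27 fell 2.50-fold. Without vehicle replicate 1, 1 of these genes was called lower.

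Most matrix genes rose, the majority of them also above their level at 3 μg/kg. Of 21 collagen and matrix genes, 19 were called higher and none lower, with a median of 1.21. Col1a1 (ENSMUSG00000001506), the main chain of fibrillar collagen, measured 8.31, 22.8, 9.06, 7.77 and 6.52 CPM in vehicle mice and 71.3, 67.9, 86.6, 56.8 and 85.9 CPM in TCDD mice 1 to 5. Vehicle mouse 2 was the highest of its group, below every treated mouse, and Col1a1 was induced 6.76-fold (edgeR adjusted p = 8.81e-09). Mmp12 rose as above, Mmp13 41.0-fold, the crosslinking oxidase Lox 6.48-fold and Col1a2 3.49-fold. Fn1, which hepatocytes also secrete, was at -0.50 and not called. Between 3 and 10 μg/kg, 17 of the 21 were called higher, beside 4.43% of all tested genes. Of 8 stellate cell genes, 4 were called higher, with Reln up 2.79-fold and Pdgfrb 1.67-fold, and Acta2 as given above. The summed level of this list was 174 to 246 CPM in vehicle and 305 to 423 CPM at 10 μg/kg.

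Endothelial genes were higher for 7 of 9, and for 4 without vehicle replicate 3. Cdh5 and Pecam1 rose 2.24-fold and 2.02-fold. None of 6 cholangiocyte genes was called, with Krt19 at -0.66 (-0.97 to -0.28 in the fits without 1 library). The same held for 5 red blood cell genes, which gauge the blood left in the organ. Beside 21.8% of all genes called, 0 of 6 and 0 of 5 do not stand apart. Of 8 hepatocyte markers, 4 were called lower, Apoa1 with the largest change, and the summed level of the list was 118939 to 143432 CPM in vehicle and 79032 to 128146 CPM at 10 μg/kg, which overlap. These marker levels moved with the metabolic and immune lists above, and their part in those results was not tested.

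**Figure D4:**
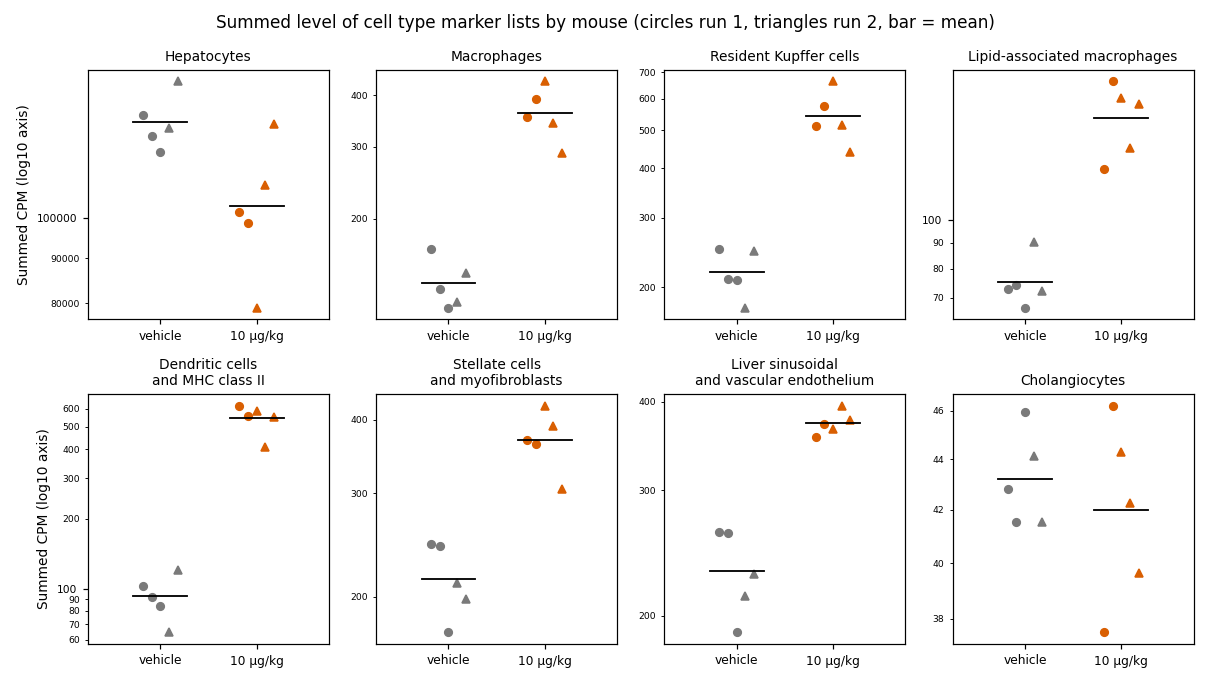
Summed CPM of 8 cell type marker lists in each mouse (log10 axis), vehicle in grey and 10 μg/kg TCDD in orange. The MHC class II list spans 64.6 to 121 CPM in vehicle and 411 to 618 CPM at 10 μg/kg, whereas the cholangiocyte list overlaps between the groups.

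Most proliferation genes were induced from a low base. Of 22 cell cycle genes, 19 were called higher and none lower, with a median of 2.30. Mki67 (ENSMUSG00000031004), which encodes the Ki-67 antigen of dividing cells, measured 1.64, 1.37, 0.647, 1.12 and 0.645 CPM in vehicle mice and 9.93, 12.4, 19.9, 9.66 and 5.33 CPM in TCDD mice 1 to 5, an induction of 10.3-fold without overlap (edgeR adjusted p = 3.09e-09). Cdc20, which triggers anaphase, rose 15.5-fold, the mitotic cyclin gene Ccnb1 13.3-fold and Aurkb 10.7-fold. The replication genes Mcm5 and Mcm6 rose less, 5.39-fold and 4.57-fold, and Pcna was at 0.45, not called. Between 3 and 10 μg/kg, 16 of the 22 were called, beside 6.77% of all tested genes. The arrest gene Cdkn1a rose as well, 5.50-fold from 11.6 ± 3.42 to 63.8 ± 24.4 CPM, and 5 of 10 p53 targets were called higher, with Gdf15 up 2.36-fold and Mdm2 at 0.15, not called.

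Of 14 genes of the integrated stress and unfolded protein responses, 6 were called higher and 3 lower. Psat1, a serine synthesis enzyme, rose 26.3-fold from 0.770 ± 0.197 to 20.5 ± 4.84 CPM, asparagine synthetase, Asns, 10.9-fold, Atf3 7.48-fold and Trib3 3.02-fold. Hspa5 (ENSMUSG00000026864), the chaperone BiP, measured 821, 947, 1791, 1103 and 1069 CPM in vehicle mice and 491, 475, 489.7, 447 and 462 CPM in TCDD mice 1 to 5. The treated mice lay within a narrow band under the lowest vehicle mouse, and Hspa5 was repressed 2.42-fold (edgeR adjusted p = 1.72e-05). The transcription factor genes Atf4 (-0.26), Ddit3 (-0.06) and Xbp1 (-0.28), and Chac1 (1.58) and Herpud1 (-0.81), were not called, though Herpud1 was without vehicle replicate 1 (-1.01) or replicate 5 at 10 μg/kg (-1.08). Sdf2l1 and Dnajb9 fell 3.95-fold and 2.00-fold. Of 6 tested fetal genes, Dlk1 was at least 13.1-fold higher and Tff3 fell 6.62-fold, while the log2 fold change of H19, called lower at -2.98, was 2.77 without vehicle replicate 2 and the call was also lost without replicate 1, 2, 4 or 5 at 10 μg/kg (-2.68 to -3.24). None of 7 reference genes for PCR was called, with Gapdh at -0.27 and Actb at 0.40 (called with libraries scaled to total counts alone). Beside 21.8% of all genes called, 0 of 7 does not stand apart. Of 13 mitochondrially encoded genes, mt-Nd2 was called lower, 1.60-fold, and 3 were without vehicle replicate 2. The lists for pancreas, adipose tissue and skeletal muscle held 1, 1 and 2 tested genes, of which Mylpf was called, as above.

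By size of change, the 10 largest rises among genes with at least 100 mean counts and no overlap were led by Nptx1, a neuronal pentraxin, and Col9a2, a cartilage collagen, which were at least 1624-fold and at least 439-fold higher, beside Cyp1a1 and Cyp1b1. Nptx1 measured 284, 220.2, 359, 373 and 314 CPM in TCDD mice 1 to 5 and at most 0.215 CPM in any vehicle mouse. Also among them were Adra2a, an adrenergic receptor (at least 40.9-fold), Ovol1, an epithelial transcription factor (at least 34.8-fold), the pseudogene Mup-ps10 (at least 30.9-fold), the peptidase gene Ecel1 (at least 29.9-fold) and Ahrr. None of Adra2a, Ovol1, Mup-ps10 and Ecel1 had a count in vehicle. The 10 largest falls were Serpina4-ps1, Hsd3b5, Gm2788, Serpina7, Hcn3, Cyp4a12b, H2-Q1, Hao1, Adrb3 and Pitx3. Serpina7, which encodes thyroxine-binding globulin, fell 22.8-fold from 40.9 ± 11.7 to 1.77 ± 0.895 CPM.

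The response at 10 μg/kg was set beside those at the neighbouring doses. Between 3 and 10 μg/kg 1041 genes (6.77%) were called, 681 higher (4.43%) and 360 lower (2.34%), and without replicate 3 at 10 μg/kg there were 682. Between 10 and 30 μg/kg 3249 (21.1%) were called, 1626 higher and 1623 lower (10.6% each). These comparisons share the mice at 10 μg/kg. Of the 2097 genes higher than vehicle, 622 were also called higher than at 3 μg/kg, and 783 were higher still at 30 μg/kg, 69 lower than at 10 μg/kg and 1245 called neither way. Of the 1250 lower genes, 306 were called lower than at 3 μg/kg, and from 10 to 30 μg/kg 550 fell further, 47 rose and 653 were called neither way. Against vehicle, the median log2 fold change at 3, 10 and 30 μg/kg was 0.32, 1.21 and 2.27 for the matrix list, 0.49, 2.30 and 2.85 for the cell cycle list and 1.94, 2.36 and 2.42 for the MHC class II list. For complement and coagulation it was -0.10, -0.45 and -1.78, and for cholesterol synthesis -0.03, 0.15 and -1.82. For the AhR target list it was 3.25, 4.24 and 4.82. All of these share the vehicle mice.

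**Figure D5:**
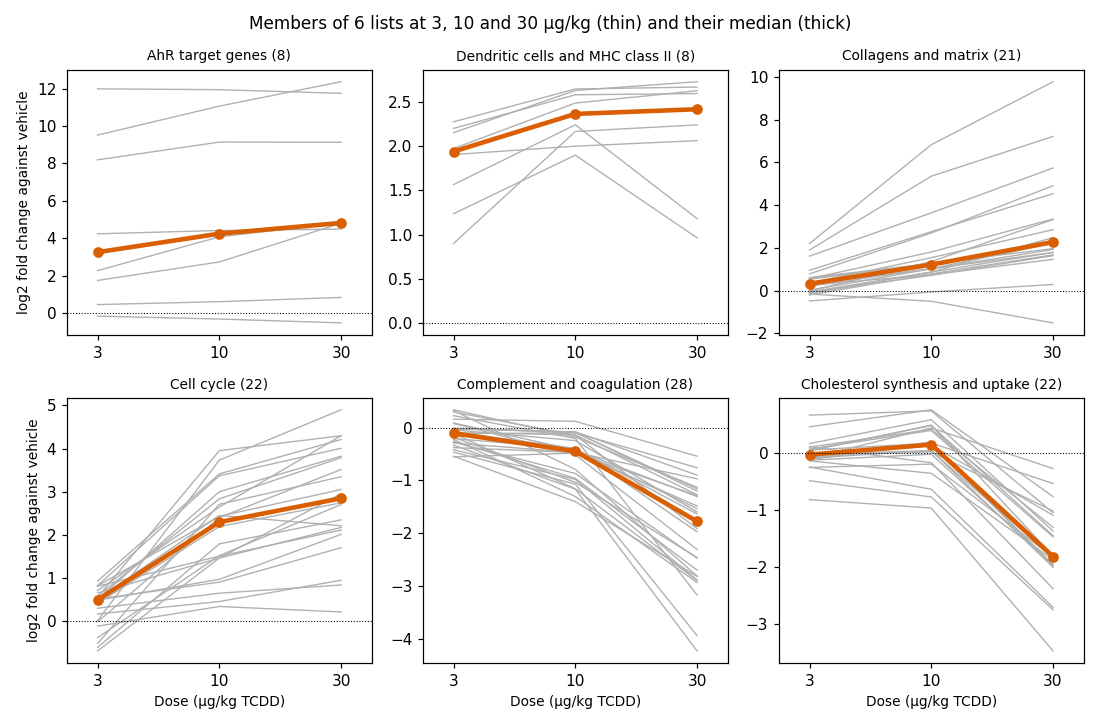
Log2 fold change against vehicle at 3, 10 and 30 μg/kg for the tested members of 6 lists (thin lines) and their median (thick line), all against the same 5 vehicle mice. Cyp1a1 is level over the 3 doses, while the median of the AhR target list rises from 3.25 to 4.24 and 4.82. Most genes of the MHC class II list lie at similar heights at 10 and 30 μg/kg. Xcr1 (-1.06 from 10 to 30 μg/kg) and Cd209a (-0.94) lie lower at 30 μg/kg without a call. The cholesterol genes are near 0 at 10 μg/kg and below it at 30 μg/kg.

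Cyp1a1 and Cyp1a2 did not differ by the call rule between neighbouring doses, changing by -0.04 and 0.18 on the log2 scale from 3 to 10 μg/kg and by -0.20 and 0.07 from 10 to 30 μg/kg, none of them called. Of the 8 tested AhR target genes, however, 4 were called between 3 and 10 μg/kg, beside 6.77% of all tested genes. Between 10 and 30 μg/kg 3 were called, beside 21.1% of all tested genes. The rises from 3 to 10 μg/kg with the lowest p were in Trpv4 (5.04), which encodes a cation channel, Col9a2 (4.29), Serpinb6a (1.80), a protease inhibitor gene, Cdc20 (3.40) and Gpnmb (4.64), all as log2 changes. Of these, Cdc20 was not called further from 10 to 30 μg/kg (0.35) and Gpnmb was (3.61). For falls from 3 to 10 μg/kg, St6galnac6 (-1.64), Fgf1 (-1.85), Slc36a1 (-0.92), Ebpl (-1.62) and Hao1 (-3.02) had the lowest p. From 10 to 30 μg/kg the lowest p for a rise were in Htra1 (4.56), Cbr3 (5.62), Srxn1 (3.17), B4galt6 (3.68) and Cbr1 (1.92), and for a fall in Gm3839 (-4.98), Hao1 (-6.89), Elovl3 (-6.78), Ablim3 (-3.23) and Sult2a8 (-4.14), as log2 changes from 10 to 30 μg/kg. In 7 genes the calls against vehicle at 10 and 30 μg/kg had opposite signs. Called higher at 10 and lower at 30 μg/kg were, among others, Mvk of cholesterol synthesis, Aldh1l1 and Prodh of folate and proline metabolism and Slc3a1, an amino acid transporter subunit, and the reverse held for Mgst3 and the tetraspanin gene Cd9. The call at 10 μg/kg was lost without vehicle replicate 1 for Slc3a1 and without replicate 3 at 10 μg/kg for Mgst3. Mvk lost it without vehicle mice 3, 4 or 5 or TCDD mice 1, 2 or 5, Aldh1l1 without vehicle mice 1, 2 or 3 or TCDD mice 1, 4 or 5, and Prodh without vehicle mice 1, 3 or 4 or TCDD mice 1 or 4. Cd9 kept its call in all of these fits. Cd9 was at -0.83 at 10 μg/kg and 0.95 at 30 μg/kg.

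The response was present in both runs of title numbers, which hold 3 vehicle and 2 treated mice (run 1) and 2 vehicle and 3 treated mice (run 2). No gene had an adjusted p under 0.05 for a difference of the response between runs by edgeR's quasi-likelihood test, 603 had an unadjusted p under 0.05, and without a filter on low counts 96 genes passed. Of the 3347 called genes, 3338 changed in the same direction in both runs. These genes were called with the same mice, so the shared direction was largely set by that choice. With a mean per dose and run fitted to all 40 libraries, 1435 were called in both runs in the same direction. Separate fits to the libraries of each run alone gave 1907 calls in run 1 and 2429 in run 2. By mouse, the median shift from the vehicle mean over the genes called higher was 1.17 to 1.48 on the log2 scale. Over the genes called lower it was -0.86 to -1.19, both largest in replicate 3. Since the genes were called with these mice, the sign of the shifts was largely set by that choice.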

How the data were processed

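Liver RNA of 40 male mice was sequenced (150 bp paired-end), of which the 5 vehicle and 5 TCDD 10 μg/kg libraries form this comparison, and the 30 others also enter the fit. Per the labels, the authors trimmed reads with Trimmomatic 0.39, checked them with FastQC 0.11.7, aligned them with STAR 2.7.3a and deposited raw counts per gene, unstranded and by strand. The labels name both GRCm39 and mm10, and which was used for alignment is not given in the sources used here. The authors also deposited normalized values on a log2 scale, used here only as an alternative. Symbols from a table of gene names supplied for this work, not the authors' annotation, matched 52083 of 55359 gene identifiers. Counts without strand cannot separate overlapping or antisense genes.

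Genes were kept by edgeR's filterByExpr (edgeR 4.0.16, R 4.3.3), libraries were scaled by TMM, and glmQLFit and glmQLFTest were fitted to all 40 libraries with a mean per dose. CPM are scaled by TMM, SD is over 5 mice, and fold changes are fitted values, so they can differ slightly from ratios of means. SE is the absolute log2 fold change divided by the square root of the test's F statistic. It is thus derived from the test and is uncertain for genes with almost no counts in a group. Calls needed a Benjamini-Hochberg adjusted p under 0.05 over 15373 genes and a fold of at least 1.5, the fold the study used. Where no vehicle library exceeded 3 counts, the fold is a lower bound against 3 counts per library. Library measures were compared by exact permutation tests over mice. The pipeline was tested on simulated counts. Mice were separate animals, and replicates of a group differed by more than sampling noise (chi-square per degree of freedom at least 15.2 between vehicle libraries and 15.9 between those at 10 μg/kg).

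The comparison, gene lists and tests were chosen with earlier results of these data known. Named were up to 6 called members per list by size of change and defining members not called, the 10 largest rises and falls with no overlap and at least 100 mean counts, the 5 smallest p per direction between neighbouring doses, genes with opposite calls at 10 and 30 μg/kg, and up to 5 promoters with GCGTG. Acot3, Elovl5, Fbp1, Cxcl12, Mcm5, Mcm6, Hspa5, Dnajb9, Clec4f and Ciita were named in addition, after their values were seen. Some genes that the rule selects are not reported here. Promoters come from RefSeq on GRCm38.p6. Alternatives were other scalings, filters, samples, title runs, strand, DESeq2 1.42.0, limma 3.58.1, no fold threshold and each library left out. Depth in the 10 libraries compared was 15496128 to 20853868 counts in genes. P-values of single genes set the difference between groups against a spread between mice estimated from all 40 libraries, not from the 10 compared alone.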

Additional observations from a re-analysis of the deposited data

Results flagged for a closer look

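In each group of 5 mice, the CPM of every gene named in the text was examined for a single mouse whose gap to the nearest other mouse took up more than 0.71 of the group's range (Dixon's 95% limit). Of 450 gene and group pairs, 43 (9.56%) passed. For normally distributed values the limit lets about 1 in 20 pass. CPM were not transformed and some lie at or near 0, so the share cannot tell whether more mice stood apart than by chance. Vehicle replicate 2 held the most of them. It was high for the muscle actin and myosin genes Acta1 (146 CPM, other mice 0 to 0.0647 CPM), Acta2 (15.2 CPM, other mice 1.49 to 2.44 CPM) and Mylpf (22.2 CPM, other mice 0.453 to 1.15 CPM), and for H19 (10.1 CPM, other mice 0 to 0.0716 CPM), an imprinted noncoding RNA that muscle also expresses. The same mouse was high for the connective tissue genes Col1a1 (22.8 CPM, other mice 6.52 to 9.06 CPM) and Col1a2 (31.4 CPM, other mice 13.7 to 17.3 CPM), the bile duct keratin gene Krt19 (4.91 CPM, other mice 1.49 to 2.44 CPM), the pyruvate kinase gene Pkm (25.3 CPM, other mice 11.8 to 13.1 CPM) and the macrophage genes Gpnmb (0.933 CPM, other mice 0 to 0.210 CPM) and Trem2 (0.560 CPM, other mice 0.194 to 0.287 CPM). It was also high for the female-biased gene Cyp2a4 (14.6 CPM, other mice 0.501 to 3.58 CPM) and for Col9a2 (0.0622 CPM, other mice 0 to 0 CPM), a single count, and low for Ahrr (0 CPM, other mice 0.129 to 0.149 CPM) and mt-Nd2 (5287 CPM, other mice 6547 to 6943 CPM).

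Among the other vehicle mice, a single mouse, not the same in each gene, was high for Apcs (79.8 CPM, other mice 59.5 to 64.5 CPM), Ccr1 (0.0995 CPM, other mice 0 to 0 CPM), Cyp4a31 (16.0 CPM, other mice 7.14 to 9.60 CPM), Sdf2l1 (112 CPM, other mice 30.8 to 49.6 CPM) and Ccl22 (0.215 CPM, other mice 0 to 0.0622 CPM), and a single mouse was low for Acaa1b (1039 CPM, other mice 1697 to 1953 CPM), G6pc (384 CPM, other mice 597 to 663 CPM), Pdgfrb (9.51 CPM, other mice 11.0 to 11.5 CPM), Psat1 (0.430 CPM, other mice 0.796 to 0.909 CPM) and Socs2 (7.09 CPM, other mice 10.2 to 11.5 CPM). At 10 μg/kg, replicate 5 was high for Ablim3 (27.5 CPM, other mice 13.9 to 17.2 CPM), Actb (1084 CPM, other mice 838 to 893 CPM), Apoa1 (3871 CPM, other mice 1549 to 2088 CPM), Ccl2 (10.0 CPM, other mice 2.77 to 4.59 CPM), Cebpb (244 CPM, other mice 70.5 to 109.5 CPM), Hsd3b5 (10.6 CPM, other mice 0.0521 to 0.720 CPM) and Pecam1 (38.3 CPM, other mice 26.9 to 28.8 CPM), and low for Cd36 (158 CPM, other mice 256 to 281 CPM). For Hsd3b5 and Apoa1 this was the treated mouse nearest to vehicle, and for Ccl2 the one farthest from it. Replicate 3 was high for B4galt6 (8.55 CPM, other mice 2.72 to 4.12 CPM), C1qb (82.6 CPM, other mice 72.9 to 74.1 CPM), Ccnb1 (5.47 CPM, other mice 2.41 to 3.02 CPM) and Slc7a11 (1.67 CPM, other mice 0.554 to 0.765 CPM) and low for Scd1 (6931 CPM, other mice 12969 to 14826 CPM). Replicate 2 was high for Cyp2c40 (3.83 CPM, other mice 1.41 to 2.00 CPM), Hk1 (12.0 CPM, other mice 5.83 to 7.19 CPM) and Spp1 (57.8 CPM, other mice 24.4 to 30.6 CPM) and low for Gsta1 (8.54 CPM, other mice 21.6 to 24.0 CPM) and Hcn3 (0.231 CPM, other mice 0.528 to 0.626 CPM), and replicate 4 was high for Cyp4a14 (125 CPM, other mice 28.8 to 53.4 CPM). The spread between mice was not tested for a cause.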

How the results depend on the processing

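The count of 3347 genes called at 10 μg/kg lay between 2987 and 3736 with relative log expression size factors, total scaling, no filter on low counts, the 2 groups compared alone, title run as a covariate, a strand-specific column, DESeq2 or limma on the deposited log2 values. With libraries scaled to total counts alone, 756 genes were called lower at 10 μg/kg, 1061 higher and 239 lower between 3 and 10 μg/kg, and 3163 higher and 971 lower between 10 and 30 μg/kg. A mean of at least 50 counts left 1350 called higher, with fewer genes tested. Title run 1 alone, with fewer mice, gave 1907 calls (1195 higher, 712 lower), 162 between 3 and 10 μg/kg (111 and 51) and 506 between 10 and 30 μg/kg (151 and 355), and Alas1 was called lower there (-2.00). Title run 2 alone gave 354 between 3 and 10 μg/kg (207 and 147), and log2 fold changes of 9.67 for Acta1 and 2.59 for H19, which with all mice were negative and called for H19 alone. Without a fold threshold 2163 genes were lower at 10 μg/kg, 635 were lower between 3 and 10 μg/kg, and 4883 were called between 10 and 30 μg/kg (2600 lower). Without a filter on low counts 96 genes differed between the title runs (0 with it by edgeR, 603 at an unadjusted p under 0.05). The causes were not tested.

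With each library left out in turn, 3098 to 3354 genes were called at 10 μg/kg and 682 (without replicate 3 at 10 μg/kg) to 1084 between 3 and 10 μg/kg, 214 to 366 of them lower. Acta1 ranged from -3.11 to 7.55 and H19 from -3.72 to 2.77, positive without vehicle replicate 2. The difference in unmapped reads (10 μg/kg minus vehicle) was -2.02 to -1.01 percentage points, in mitochondrial reads -0.42 to -0.14 percentage points, and in genes with a count 616.5 to 1195, with an unadjusted exact p under 0.05 without vehicle replicate 1 or 2 for the unmapped reads, without vehicle replicate 2 for the mitochondrial reads and without replicate 5 at 10 μg/kg for the genes with a count. Of the log2 fold changes of named genes under the alternatives, 4755 kept direction and side of the threshold, 138 lost the call, 24 gained one and 5 reversed. Counts of called list members stayed within 1.5 times of the main count in 2303 cases and moved further in 249. No paired analysis was possible because replicates are numbered in accession order and the labels tie no vehicle mouse to a treated mouse. Depth limits genes near 0: 3 counts are 0.191 CPM on average in vehicle.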

Other observations

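Some listed genes failed the count filter and were not tested. Hao2, a hydroxy acid oxidase gene, had 245 counts over the 5 mice at 10 μg/kg, 238 of them in 1 mouse, and 11 over the vehicle mice. Aldh3a1, an AhR target of other tissues, had 25 counts over the treated mice and 0 over vehicle. Pancreatic transcripts summed to at most 1.42 CPM in a vehicle mouse and 7.82 CPM in a treated mouse, where Ctrb1 had at most 75 counts in a treated mouse, and Prss2 had 44, Cela3b 39, Pnlip 27 and Cpa1 22 counts over the 5 treated mice (14, 1, 0 and 4 over vehicle).

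The 4 vehicle mice other than replicate 2 had 0 or 1 count of the muscle actin gene Acta1, and the 5 treated mice had between 16 and 131 counts, while the treated mice had at most 3 counts of Ckm and 4 of Myh4.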
